A study of Mus musculus with 36 samples.

Results

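The genes described here encode voltage-gated ion channels and their close relatives. They are the protein-coding genes whose symbols begin with Kcn followed by a letter (potassium channels), Scn followed by a number and a or b (sodium channels), Cacna, Cacnb or Cacng (calcium channels), or Hcn followed by a number (hyperpolarisation-activated cation channels). The rule found 138 genes among the 55470 rows of the count files. It gave 94 potassium, 26 calcium, 14 sodium and 4 HCN channel genes, auxiliary subunits and the Kcnk and Kcnj potassium channels (which have no voltage sensor) included. Of the 138, 7 had no count in any library (6 potassium and 1 sodium). The filter on low counts left 82 genes in the tests, which were 53 potassium, 18 calcium, 9 sodium and 2 HCN genes. These 82 are the channel genes with enough counts, not the whole set.

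Ion channels of this kind set how a pyramidal neuron turns synaptic input into spikes. Sodium channels carry the upstroke of the action potential, calcium channels couple depolarisation to transmitter release and to signalling in the nucleus, and HCN channels carry a depolarising current at rest, mostly in the apical dendrites. Potassium channels repolarise the cell: delayed rectifiers end the spike, A-type channels delay it and damp back-propagation into dendrites, M-type channels restrain repeated firing, and leak and inward rectifier channels hold the resting potential. Pore subunits assemble with auxiliary subunits that set their trafficking and gating.

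Ribosome-bound RNA was taken by anti-HA pulldown from cortex of mice on the C57BL6JL strain that carry a floxed HA-tagged ribosomal protein (HA-Rpl22(f/+)) and Camk2a-Cre(+/-), so that the tag marks ribosomes of Camk2a-expressing pyramidal neurons. All groups carry both alleles. Mice with 1 ΔC allele of Shank3, Shank3(ΔC/+) (below, Shank3), were compared with Shank3(+/+) littermates (WT), either naive or 1 h or 4 h after a forced swim of 5 min per the sample labels (6 min per the protocol text) in water at 25 °C. Cohort 1 held 3 WT and 3 Shank3 naive libraries with 6 WT and 5 Shank3 libraries at 1 h, and cohort 2 held 4 WT and 4 Shank3 naive libraries with 5 WT and 6 Shank3 libraries at 4 h, 36 in all. The protocol text writes HA-Rpl22(f/f) where the sample labels write f/+, and age and sex are not in the labels used here. The labels do not say whether libraries came from separate mice, so a p-value here sets a difference against library-to-library spread, which may be technical.

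Libraries held 883870 to 3520018 counts, and the channel genes took 0.118 to 0.442% of them (1346 to 14452 counts a library). Ribosomal RNA took 38.6 and 13.5% of the counts in 2 naive Shank3 libraries of cohort 2 and 10.5% in 1 WT library at 1 h. Most counts lay on rows that face another gene on the opposite strand, and genes with no such neighbour took 19.2% of all counts. Among pairs of a coding gene and an antisense gene with overlapping exons, the share of counts on the coding row (the pair share) was 10.7 to 15.0% in naive libraries, 11.4 to 17.0% at 1 h and 17.0 to 33.1% at 4 h. It therefore moves with time after the swim, and its part in the swim results was not tested; a second fit with the pair share as a covariate is given beside most swim results for channel genes. The strand setting of the counting is not given in the sources used here, so reads of a channel gene and of its antisense neighbour cannot be told apart. Pyramidal markers summed to 10300 to 17898 normalised CPM, and interneuron markers to 732 to 1212 in naive, 559 to 1099 at 1 h and 389 to 707 at 4 h. The interneuron sum was led by Lamp5 (3409 counts over all libraries) and Dlx1 (2035), whose row faces exons of an opposite gene. Sst, Vip, Npy and Slc32a1 held 16 to 48 counts each. Microglia markers summed to 6610 to 9816 in naive cohort 1, 3480 to 6984 in naive cohort 2, 2183 to 6931 at 1 h and 740 to 2268 at 4 h. Nearly all of that sum is the row of Csf1r (26695 counts over all libraries), which faces exons of an opposite gene; the other 5 microglia genes held 2 to 21 counts each. Oligodendrocyte and precursor markers summed to 697 to 1165 in naive cohort 1, 540 to 910 in naive cohort 2, 545 to 891 at 1 h and 694 to 1446 at 4 h, and astrocyte markers to 554 to 1044, 594 to 1128 and 744 to 1141 in naive, 1 h and 4 h libraries. Cnp (7181 counts) led the oligodendrocyte sum, and Slc1a2 (3879) and Glul (3491) the astrocyte sum. These rows also face exons of an opposite gene. Endothelial and mural markers summed to 0 to 71.6, with Cldn5 at 0 throughout. The part of these markers in the results was not tested. The Shank3 row counts the whole gene (4 to 30 counts in naive libraries) and does not tell the ΔC allele from the intact one. In a pulldown of bulk tissue, fewer tagged cells and less ribosome-bound RNA per cell cannot be told apart.

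Normalised levels below are CPM relative to the genes with no opposite-strand gene, scaled by TMM. Fold changes are log2, from edgeR's quasi-likelihood test over all 11341 genes tested, and a gene is called at a Benjamini-Hochberg adjusted p under 0.05. "Rose" and "fell" are used for called genes. "Both fits" means called in the same direction without and with the pair share covariate. The share of all genes called in both fits was not computed, so counts in both fits have no background of their own here.

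The upstream sequences of 4 channel genes called in both fits at 1 h are shown first: 2 that rose (Kcnip4 and Kcnd2) and 2 that fell (Kcnk2 and Hcn2). Kcnip4 encodes a calcium-binding subunit of the A-type pore that Kcnd2 encodes, so the first pair belongs to the same channel complex. Each is the 250 bases before a RefSeq transcript start on GRCm38.p6, read 5′ to 3′ on the strand of the gene. The Kcnip4 window is chr5:49285660-49285909 (minus strand), the Kcnd2 window chr6:21215096-21215345 (plus strand), the Kcnk2 window chr1:189344193-189344442 (minus strand, 1 of 4 starts listed) and the Hcn2 window chr10:79716384-79716633 (plus strand). The Kcnip4 window lies inside the gene span given below, so it precedes an internal start. Capitals mark the AP-1 motif TGACTCA.
Kcnip4: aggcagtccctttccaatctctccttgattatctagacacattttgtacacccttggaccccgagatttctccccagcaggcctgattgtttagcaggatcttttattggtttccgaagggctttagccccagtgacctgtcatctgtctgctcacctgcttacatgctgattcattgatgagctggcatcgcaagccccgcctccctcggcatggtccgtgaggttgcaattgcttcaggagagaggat
Kcnd2: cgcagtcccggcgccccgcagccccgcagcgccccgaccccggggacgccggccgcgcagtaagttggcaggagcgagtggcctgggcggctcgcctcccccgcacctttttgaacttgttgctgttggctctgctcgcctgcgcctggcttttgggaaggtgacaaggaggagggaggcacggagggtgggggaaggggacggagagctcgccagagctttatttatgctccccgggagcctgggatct
Kcnk2: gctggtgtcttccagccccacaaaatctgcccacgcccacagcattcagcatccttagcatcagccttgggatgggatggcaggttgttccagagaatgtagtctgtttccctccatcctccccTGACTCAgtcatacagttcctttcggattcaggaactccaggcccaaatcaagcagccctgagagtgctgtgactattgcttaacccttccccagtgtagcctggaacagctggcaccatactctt
Hcn2: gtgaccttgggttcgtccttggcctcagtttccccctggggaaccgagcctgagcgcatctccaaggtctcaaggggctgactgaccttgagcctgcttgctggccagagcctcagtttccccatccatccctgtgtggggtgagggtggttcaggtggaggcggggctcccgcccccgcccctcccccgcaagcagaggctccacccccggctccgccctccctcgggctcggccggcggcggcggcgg
In all, 5 motifs were searched on both strands in the 101 of the 138 genes that matched a RefSeq promoter, 59 of them among the tested genes. The cAMP response element TGACGTCA was in 0 of the 101 and in 2.28% of 16512 coding genes. The AP-1 motif TGACTCA, which Fos and Jun proteins bind, was in 3 (Kcnk2, Kcnip3 and Cacng5) and in 4.76% of coding genes. The EGR1 motif GCGTGGGCG was in 1 (Scn7a; 0.884% of coding genes), the E-box CACGTG in 5 (Kcnab1, Kcne4, Kcnh4, Kcnj2 and Kcnn4; 7.81%), and the 15-base consensus of the glucocorticoid response element in 0 (0.0121%). The median GC content was 58.8% over the 101 and 56% over coding genes. Of the genes called in both fits at 1 h, 15 matched a promoter. Among these, 1 (Kcnk2) held the AP-1 motif and 0 held any of the other motifs. A match describes letters in the window, not a bound site.

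In naive WT mice the channel transcripts spanned a wide range. Levels between genes are compared per kilobase of exon, as normalised CPM per kb (mean ± SD, n = 7). Kcnf1, a silent Kv subunit that modifies other Kv channels and whose gene has 1 exon, stood at 606 ± 159. Lower levels were those of Kcna6 at 189 ± 70.1, Kcnab3 (a Kv beta subunit) at 160 ± 19, Kcnj3 (a G-protein-gated inward rectifier) at 158 ± 54.4, and Kcnj9 at 134 ± 12.5. The SDs of neighbours among Kcna6, Kcnab3, Kcnj3 and Kcnj9 overlap, so their order is not resolved. Cacnb1, a calcium channel beta subunit, stood at 133 ± 38.5 and Scn2b at 109 ± 25.7. Hcn2 stood at 72.8 ± 34.7, Kcna2 at 24 ± 4.89 and the sodium pore Scn2a at 19.1 ± 5.02. Among the tested genes the lowest were Kcnc2 at 1.38 ± 1.67 and Scn3a at 1.39 ± 0.817. Over all libraries, potassium channel genes took 64.2% of the channel counts, calcium 20.1%, sodium 14.6% and HCN 1.18%.

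Opposite-strand rows touch some of these levels. Of the 82 tested genes, 37 have no gene on the other strand, 28 share exon sequence with one and 17 face one in introns only. In 40 pairs of a channel gene and an exon-overlapping opposite row, the opposite row held more counts in 25. Kcnab3 had 2576 counts over all libraries against 31750 on Kcnab3os, Cacnb4 6148 against 41018 on A430018G15Rik, Kcna6 4556 against 20446 on Gm26673, and Kcnmb4 (a subunit of calcium-activated channels) 885 against 37557 on Kcnmb4os1. Kcnf1, Kcns2, Kcna1, Kcnd2, Hcn2, Kcnk4 and Scn2a have no opposite-strand gene.

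The first comparison asks how channel transcripts on ribosomes differ between Shank3 and WT mice. No channel gene was called between genotypes before the swim, 1 h or 4 h after it, or in the average over times, by edgeR with or without the pair share or by DESeq2. Across all genes the background was as low: 0.00882% of 11341 genes were called without a swim, 0% at 1 h, 0.00882% at 4 h and 0.0176% in the average (0.0176%, 0%, 0.0176% and 0.0265% with the pair share). At an unadjusted p under 0.05, the naive comparison passed 1 of the 82 channel genes, the 1 h comparison 2, the 4 h comparison 1 and the average 2. The median log2 difference (Shank3 over WT) over the 82 was 0.00 for naive libraries, -0.02 at 1 h and -0.01 at 4 h.

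The naive gene was Kcna1, a low-threshold axonal delayed rectifier. In naive cohort 1 it read 287, 241 and 455 in the WT libraries and 215, 296 and 302 in the Shank3 libraries. In naive cohort 2 it read 250, 173, 170 and 165 in WT and 123, 84.6, 140 and 140 in Shank3. The groups overlapped in cohort 1 and did not in cohort 2, where every Shank3 library lay below every WT library. The fitted difference was -0.47 (95% interval -0.88 to -0.06, unadjusted p = 0.0259, adjusted p = 1). At 1 h it was 0.01 (-0.44 to 0.46).

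Other sets of channels gave intervals that bound the genotype difference. For the sodium pore Scn2a the average difference was 0.10 (95% interval -0.11 to 0.32), and for Scn8a, which starts spikes at the axon initial segment, 0.17 (-0.02 to 0.35). For the Kv beta subunit Kcnab2 it was -0.02 (-0.23 to 0.19). HCN channels have been studied in neurons lacking Shank3; Hcn2 differed by -0.02 (-0.39 to 0.35). The L-type calcium pore Cacna1c differed by -0.01 (-0.33 to 0.32) and Cacnb4 by -0.07 (-0.24 to 0.10). Among these, Cacnb4 had the narrowest interval, and those of Hcn2 and Cacna1c were wider. Ranked by p and not by size of difference, Cacng8, an AMPA receptor auxiliary subunit, came first at 0.42 (0.07 to 0.78, unadjusted p = 0.0205). Cacnb2 followed at 0.23 (unadjusted p = 0.0378), and neither was called.

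**Figure D1:**
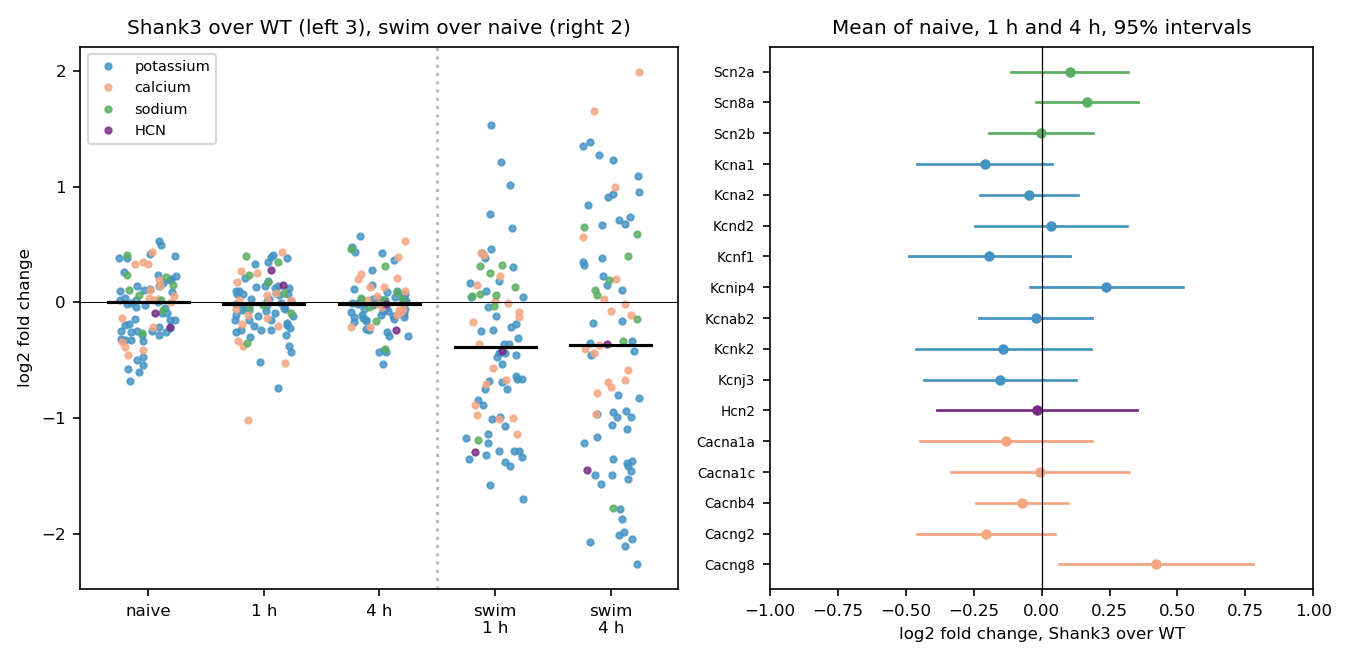
Left, log2 differences of the 82 tested channel genes (points, with the median as a bar) for Shank3 over WT in naive, 1 h and 4 h libraries and for swim over naive at both times; right, the genotype average with 95% intervals for channel genes of each family. The genotype differences lie closer to 0 than the swim fold changes, and Cacng8 (0.42) is the gene shown whose interval excludes 0.

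The second comparison asks what happened 1 h after the swim, against naive mice of cohort 1. The activity genes Fos, Arc, Nr4a1 and Egr1 rose by 2.92, 2.55, 2.82 and 1.11 in log2. Averaged over genotypes, 5 of the 82 channel genes rose and 31 fell, and the median was -0.39. Among all 11341 genes 41.4% were called (11.8% higher and 29.6% lower), with a median of -0.09. With the pair share, 3 rose and 24 fell (all genes 31.9%, with 12.7% higher and 19.3% lower), with a median of -0.30. Scaling by TMM over all genes, which moves the median of all genes to 0.21, gave 9 higher and 24 lower and a channel median of -0.09. In both fits 24 channel genes were called, 2 higher (Kcnip4 and Kcnd2) and 22 lower. Within each genotype, every library at 1 h had a higher pair share than every naive library of cohort 1. The ranges met only across genotypes, where the lowest WT library at 1 h (11.4%) lay below the highest naive Shank3 library (11.9%). Swim and pair share can therefore not be cleanly told apart at 1 h, and a call in both fits does not separate them.

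**Figure D2:**
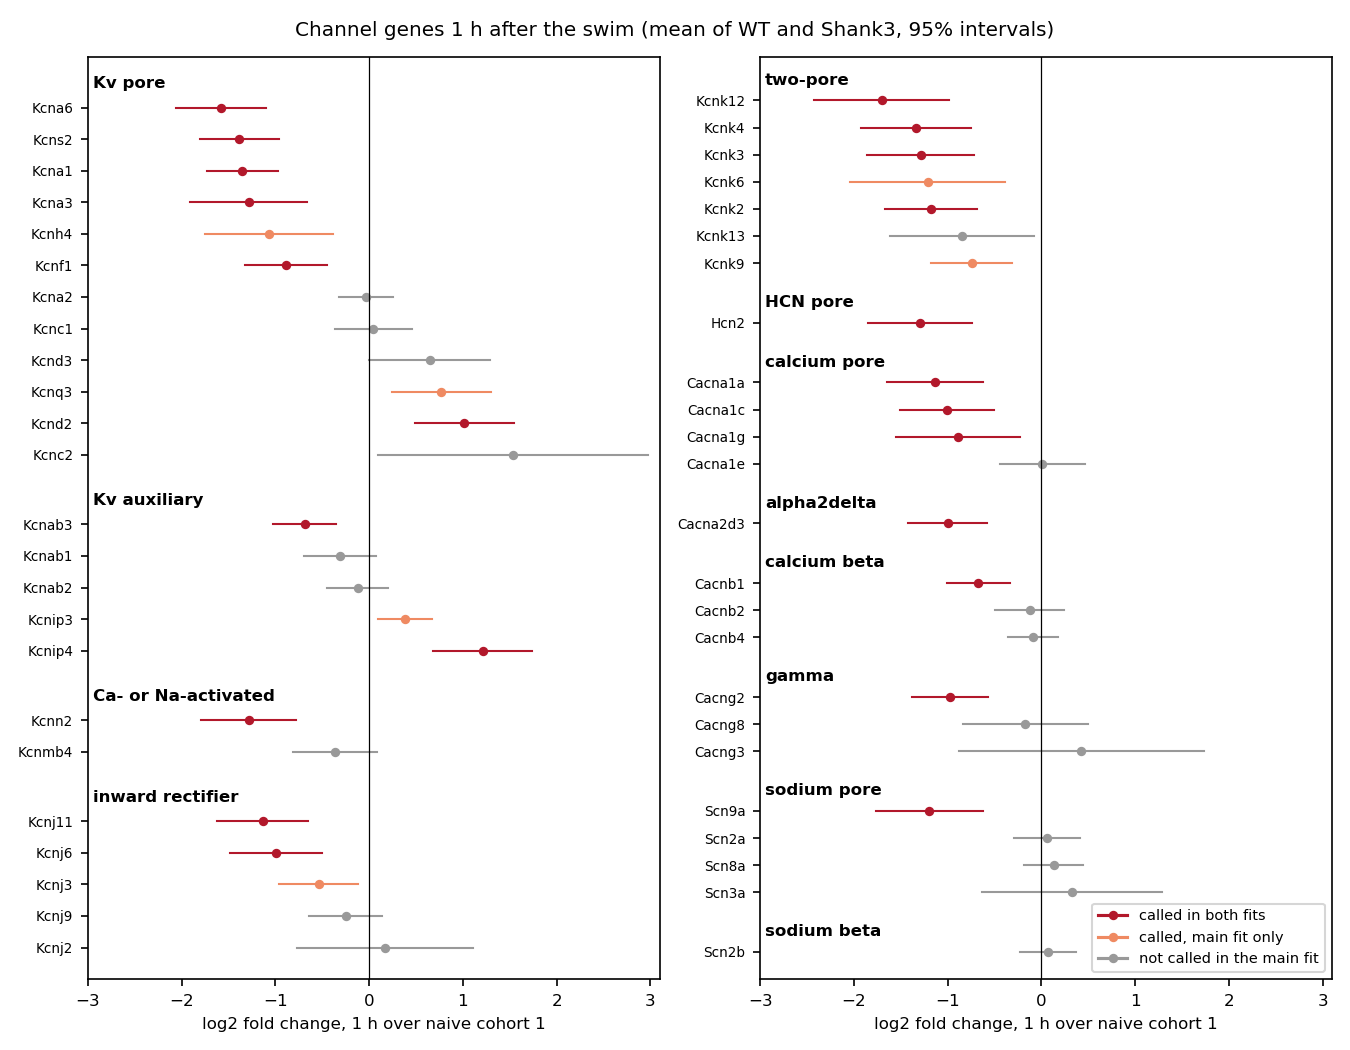
Log2 fold change at 1 h over naive cohort 1, averaged over genotypes, for channel genes described in the text, by role, with 95% intervals. Red points were called in both fits (Kcnip4 and Kcnd2 above 0, the others below it), orange ones in the fit without the pair share, and grey ones in neither or with it alone; the Kcnk leak channels are headed two-pore.

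The genes that rose encode parts of the A-type channel. Kcnip4 (chromosome 5, 48389502 to 49524907, mm10, minus strand) read 28.7, 37.0 and 42.6 in the naive WT libraries of cohort 1 and 88.9, 28.6 and 78.0 in the naive Shank3 libraries. At 1 h it read 61.4 to 158 in WT (median 98.9) and 98.2, 111, 151, 107 and 127 in Shank3. Within cohort 1, WT groups did not overlap, nor did the Shank3 groups, although 2 WT libraries at 1 h lay below 2 naive Shank3 libraries. The naive WT levels of Kcnip4 rest on a few counts each, in libraries with TMM-scaled totals of 69791, 108070 and 70392. Its naive WT values of cohort 2, given below, overlap the WT values at 1 h. The fold change was 1.21 (SE 0.258, adjusted p = 0.000477; 1.10 with the pair share, adjusted p = 0.00215) and stayed between 1.04 and 1.36 with each library left out. Kcnip4 shares exon sequence with the coding gene 5730480H06Rik and the antisense gene Gm20700.

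Kcnd2 (chromosome 6, 21215503 to 21729805, mm10, plus strand), the A-type pore of dendrites, has no opposite gene. It read 57.3, 37.0 and 42.6 in naive WT and 37.1, 85.9 and 39.0 in naive Shank3 libraries of cohort 1, from 11 and 18 counts in all. The range at 1 h was 61.4 to 142 in WT (median 98.8), with 71.4, 88.7, 105, 107 and 105 in Shank3. WT groups did not overlap, and 1 naive Shank3 library lay within the range of the Shank3 libraries at 1 h. The fold change was 1.02 (SE 0.257, adjusted p = 0.00196; 1.09 with the pair share, adjusted p = 0.00291). Naive mice of cohort 2 read 55.5 to 127 in WT and 57.7 to 102 in Shank3, which overlaps the values at 1 h. The sister pore Kcnd3 stood at 0.65 (adjusted p = 0.1; 0.83, adjusted p = 0.0434 with the pair share). The M-channel subunit Kcnq3 (0.77, adjusted p = 0.0158) and the auxiliary subunit Kcnip3 (0.38, adjusted p = 0.032) rose without the pair share; with it their adjusted p were 0.056 and 0.265.

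Kv pore genes on the falling side included members of the low-threshold Kcna group. Of 26 tested Kv pore genes, 3 rose and 10 fell, beside 11.8% of all genes that rose and 29.6% that fell. Their median was -0.30, and 0.01 under all-gene TMM. With the pair share 2 rose and 6 fell (12.7% and 19.3% of all genes). Kcna1 (chromosome 6, 126640397 to 126646384, mm10, minus strand) read 83.6 to 205 at 1 h in WT (median 94.6) and 125, 124, 102, 118 and 112 in Shank3, all below the naive libraries of cohort 1 given above. It fell by 1.35 (SE 0.184, adjusted p = 8.43e-06, and -1.03 with the pair share, adjusted p = 5.47e-06). Its naive values of cohort 2, given above, overlap those at 1 h in both genotypes. Kcna6 fell by 1.58 (adjusted p = 2.01e-05; -1.15 with the pair share), with its antisense row Gm26673 at -1.12, and Kcna3 fell by 1.29 (adjusted p = 0.00107; -0.65 with the pair share, adjusted p = 0.0291). Kcna2, a partner of Kcna1 in axonal channels, stood at -0.04 (95% interval -0.33 to 0.26; 0.10 with the pair share).

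Silent Kv subunits, which do not conduct alone and modify other Kv channels, included Kcns2 and Kcnf1, which both fell. Kcns2 (chromosome 15, 34837355 to 34843407, mm10, plus strand) read 716, 740 and 838 in naive WT and 608, 868 and 439 in naive Shank3 libraries. At 1 h it read 163 to 379 in WT (median 269) and 339, 262, 248, 286 and 213 in Shank3, with no overlap in either genotype. It fell by 1.38 (SE 0.207, adjusted p = 2.22e-05; -0.95 with the pair share). Kcnf1 read 2980, 3868 and 3566 in naive WT and 1209 to 3163 at 1 h (median 1672), where the highest library overlapped the naive range. It fell by 0.89 (SE 0.213, adjusted p = 0.00124; -0.40, adjusted p = 0.000955 with the pair share). Kcnab3 fell by 0.69 (adjusted p = 0.0012; -0.63 with the pair share), with its antisense row Kcnab3os at -1.08.

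Most leak channel genes of the Kcnk family fell. Of 9 tested, 8 fell and none rose (29.6% and 11.8% of all genes), with a median of -1.18. With the pair share 4 fell (19.3% of all genes) and the median was -0.64. Under all-gene TMM 6 fell and the median was -0.90. Kcnk4, a mechanically gated leak channel with no opposite gene, read 158, 139 and 185 in naive WT and 163, 124 and 127 in naive Shank3 libraries. Values at 1 h were 33.1 to 123 in WT (median 59.9) and 75.8, 44.3, 46.8, 28.0 and 70.9 in Shank3, below every naive library of cohort 1 of its genotype. It fell by 1.34 (SE 0.285, adjusted p = 0.000477, and -0.98 with the pair share). Its naive WT values of cohort 2, given below, overlap the WT values at 1 h. Kcnk12 fell by 1.70 (adjusted p = 0.000364, and -1.20 with the pair share), Kcnk3 by 1.29 (-0.64) and Kcnk2 by 1.18 (-0.79). The rows opposite Kcnk3 (Gm9899) and Kcnk2 (A430027H14Rik) stood at -0.78 and -1.31. Kcnk9, an acid-sensitive leak channel, fell by 0.75 without the pair share (adjusted p = 0.00501) and stood at -0.31 with it (adjusted p = 0.134). Kcnk13 stood at -0.84 (adjusted p = 0.0694; -0.23 with the pair share, adjusted p = 0.609).

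Inward rectifiers and activated channels followed with fewer calls, beside 29.6% of all genes that fell at 1 h (19.3% with the pair share). Of 6 inward rectifier genes 3 fell in each fit (median -0.49). Kcnj11, the pore of ATP-sensitive channels, fell by 1.14 (adjusted p = 0.000417, and -0.93 with the pair share). Kcnj6, a G-protein-gated pore, fell by 0.99 (-0.56 with the pair share), with its antisense row Gm41505 at -0.92. Among 6 calcium- or sodium-activated genes 1 fell in each fit: the small-conductance channel Kcnn2, by 1.28 (adjusted p = 0.000218; -0.73 with the pair share). Its pseudogene and antisense neighbours share its exons and stood at -1.32 and -0.93.

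**Figure D3:**
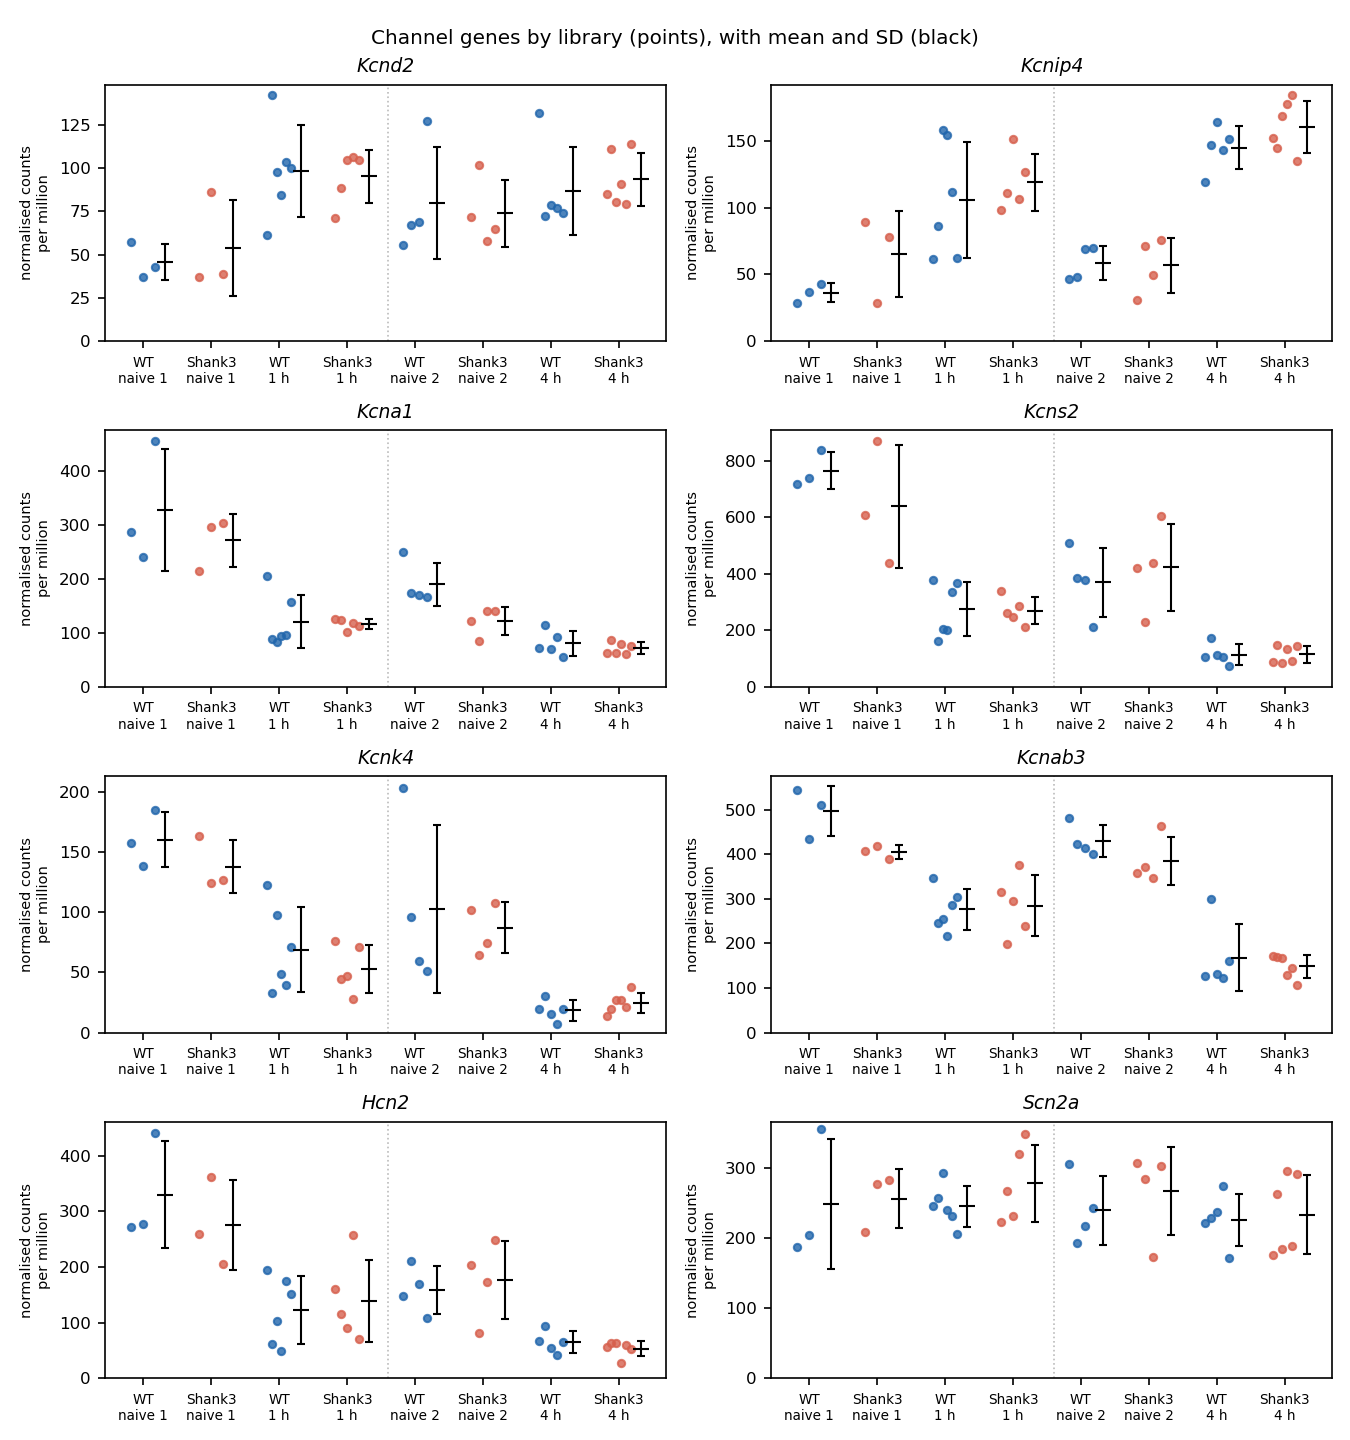
Normalised CPM of 8 channel genes in every library (points), with group mean and SD in black and the cohorts parted by a dotted line. In each genotype the 1 h points of Kcnk4, Kcns2 and Kcna1 lie below the naive points of cohort 1, and those of Scn2a overlap them.

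Hcn2 (chromosome 10, 79716634 to 79736108, mm10, plus strand) read 272, 278 and 440 in naive WT and 259, 363 and 205 in naive Shank3 libraries. At 1 h it read 48.4 to 195 in WT (median 127), below the naive range, and 161, 115, 90.8, 258 and 70.9 in Shank3, which overlaps it. It fell by 1.29 (SE 0.272, adjusted p = 0.000418; -1.16 with the pair share, adjusted p = 0.00503).

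Of 18 tested calcium channel genes, 6 fell and none rose in each fit, beside 29.6% of all genes that fell (19.3% with the pair share), with a median of -0.27 that was 0.04 under all-gene TMM. Cacna1a, the P/Q-type pore of presynaptic terminals, read 244, 204 and 227 in naive WT and 81.5, 114 and 156 in naive Shank3 libraries. Values at 1 h were 42.3 to 164 in WT (median 69.2) and 58.0, 57.6, 66.1, 101 and 78.4 in Shank3. WT groups did not overlap and Shank3 groups did. It fell by 1.14 (SE 0.25, adjusted p = 0.000631, and -1.10 with the pair share). Its antisense row Gm16183 held 7088 counts against 925 and stood at -0.86. Cacna1c fell by 1.01 (adjusted p = 0.00137; -0.71), Cacna2d3 by 1.00 (adjusted p = 0.000349; -0.85), Cacng2, an AMPA receptor auxiliary subunit, by 0.97 (adjusted p = 0.000323; -0.94) and Cacnb1 by 0.67 (adjusted p = 0.00137; -0.71). Cacng2 held 1468 counts against 2198 on its antisense row A730060N03Rik, which stood at -1.62. The T-type pore Cacna1g fell by 0.89 (adjusted p = 0.026, and -0.85 with the pair share), with an adjusted p of 0.114 under all-gene TMM.

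Of 9 sodium channel genes tested at 1 h, 1 fell and none rose in each fit, with a median of 0.07. Among all genes 29.6% fell (19.3% with the pair share). Under all-gene TMM 1 sodium gene fell and 1 rose and their median was 0.37. Scn9a fell by 1.19 (SE 0.279, adjusted p = 0.00102; -0.61, adjusted p = 0.0134 with the pair share). Scn2a (chromosome 2, 65620771 to 65767447, mm10, plus strand) read 186, 204 and 355 in naive WT and 205 to 293 at 1 h (median 242), and the groups overlapped. Its fold change was 0.06 (95% interval -0.29 to 0.41), that of Scn8a 0.13 (-0.18 to 0.44) and that of Scn2b 0.07 (-0.23 to 0.37). All 3 intervals include 0. With the pair share the fold changes of Scn2a, Scn8a and Scn2b were 0.29, 0.08 and 0.18 (adjusted p = 0.178, 0.751 and 0.331).

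Each genotype taken alone gave fewer calls. In WT, 3 channel genes rose and 25 fell at 1 h (30.2% of all genes, with 6.99% higher and 23.2% lower). With the pair share 18 were called (21.6% of all genes), and 17 were called in both fits. In Shank3, none rose and 9 fell (6.60% of all genes, with 1.91% higher and 4.68% lower). With the pair share 8 were called (12.4% of all genes). In both fits 7 were called: Kcna1, Kcna6, Kcns2, Kcnk4, Kcnk12, Cacng2 and Cacnb1. The WT count was 14 without WT naive cohort 1 replicate 3. The Shank3 count was 0, 4 and 2 without Shank3 naive cohort 1 replicates 2, 1 and 3, between 2 and 5 without Shank3 1 h replicates 2 to 5 in turn, and 17 and 16 without WT 1 h replicate 1 or WT 4 h replicate 5. Kcnip4 rose in WT (1.58, adjusted p = 0.00597; 1.44 with the pair share, adjusted p = 0.0155) and stood at 0.85 in Shank3 (adjusted p = 0.0758; 0.75, adjusted p = 0.125). Cacna1a fell by 1.58 in WT (adjusted p = 0.0024; -1.55 with the pair share, adjusted p = 0.000813) and stood at -0.69 in Shank3 (adjusted p = 0.195; -0.65, adjusted p = 0.245). The difference between the genotypes' responses was called for no channel gene (0% of all genes; 2 of 82 at an unadjusted p under 0.05). One of them was Kcnc1, a fast delayed rectifier, at -1.06 (95% interval -1.88 to -0.24, unadjusted p = 0.015).

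The third comparison asks what happened at 4 h, against naive mice of cohort 2. Averaged over genotypes, 19 channel genes rose and 39 fell, with a median of -0.37. Among all genes 66.0% were called (22.5% higher and 43.5% lower), with a median of -0.23. With the pair share, 3 rose and 2 fell (6.70% of all genes, with 3.27% higher and 3.43% lower), and the median was -0.08. Under all-gene TMM 33 rose and 28 fell and the median was 0.11, opposite in sign. In both fits 4 channel genes were called: Kcnip4 and Kcnq3 rose, and Kcnab3 and Kcns2 fell. The pair share ran from 11.7 to 15.0% in naive cohort 2 and from 17.0 to 33.1% at 4 h, with no overlap. Swim and pair share can therefore not be cleanly told apart at 4 h, and a call lost with the pair share does not show that a gene did not respond.

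**Figure D4:**
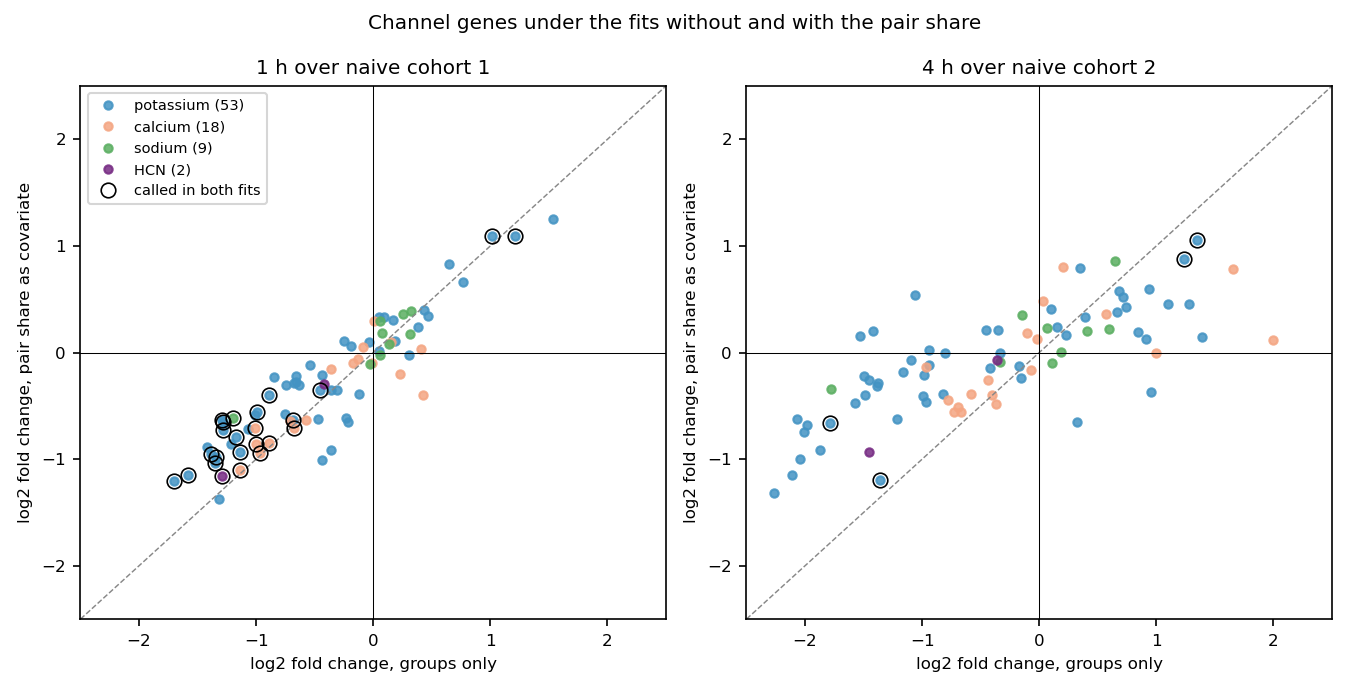
Log2 fold change of each tested channel gene in the fit without (horizontal axis) and with (vertical axis) the pair share, at 1 h and 4 h, with equality as a dashed line and genes called in both fits ringed. At 1 h 24 genes are ringed, and at 4 h 4 are and the falls without the pair share shrink with it.

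Kcnip4 read 46.2, 48.1, 69.0 and 70.0 in naive WT and 30.7, 71.1, 49.5 and 75.6 in naive Shank3 libraries of cohort 2. At 4 h it read 119, 147, 164, 143 and 151 in WT and 135 to 184 in Shank3 (median 160). Every library at 4 h lay above every naive library of both cohorts. It rose by 1.35 (SE 0.187, adjusted p = 1.24e-07; 1.05 with the pair share, adjusted p = 0.00742), and its coding neighbour 5730480H06Rik rose by 0.86 (adjusted p = 0.000325).

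Kcnq3, a subunit of the M channel, read 74.0, 86.5, 78.2 and 57.3 in naive WT and 30.7, 102, 65.9 and 75.6 in naive Shank3 libraries of cohort 2. At 4 h it read 169, 142, 171, 191 and 182 in WT and 157 to 194 in Shank3 (median 176), with no overlap. It rose by 1.23 (SE 0.191, adjusted p = 8.64e-07; 0.88 with the pair share, adjusted p = 0.0214).

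Kcnab3 read 481, 423, 414 and 401 in naive WT and 358, 372, 346 and 465 in naive Shank3 libraries of cohort 2. At 4 h it read 127, 300, 132, 123 and 160 in WT and 107 to 171 in Shank3 (median 157), below every naive library. It fell by 1.36 (SE 0.146, adjusted p = 3.23e-09; -1.19 with the pair share, adjusted p = 0.000345), and Kcnab3os by 1.66. Kcns2 read 509, 385, 377 and 210 in naive WT and 104, 172, 114, 107 and 74.1 at 4 h, with no overlap. It fell by 1.79 (SE 0.197, adjusted p = 4.25e-09; -0.66 with the pair share, adjusted p = 0.0489), and lost the call when the pair share was joined with all-gene TMM.

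Other channel genes at 4 h had calls that ended with the pair share. All 9 Kcnk genes fell (median -1.57), beside 43.5% of all genes. With the pair share none did (median -0.48), beside 3.43% of all genes. Kcnk4 fell by 2.11 (adjusted p = 4.44e-08) and stood at -1.15 with it (adjusted p = 0.059). It read 204, 96.2, 59.8 and 50.9 in naive WT and 19.9, 30.5, 15.1, 7.15 and 19.5 at 4 h. Kcnn2 fell by 2.07 and stood at -0.63 (adjusted p = 0.145), Kcnf1 fell by 1.49 and stood at -0.22 (adjusted p = 0.343), and Hcn2 fell by 1.45 and stood at -0.94 (adjusted p = 0.2). Kcna1 fell by 0.99 and stood at -0.21 (adjusted p = 0.651). On the rising side Cacng3, a gamma subunit, rose by 2.00 and stood at 0.11 (adjusted p = 0.893), and Kcnab2 rose by 0.85 and stood at 0.19 (adjusted p = 0.508). The R-type pore Cacna1e stood at 0.21 (adjusted p = 0.305) and was called with the pair share at 0.81 (adjusted p = 0.02). Sodium genes had 3 that rose and 2 that fell (22.5% and 43.5% of all genes), and none with the pair share (6.70% of all genes called). Among them Scn9a fell by 1.78 and stood at -0.34 (adjusted p = 0.466). Kcnd2, which rose at 1 h, stood at 0.15 (95% interval -0.22 to 0.52; 0.24 with the pair share).

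By genotype, 11 channel genes rose and 33 fell at 4 h in WT (49.3% of all genes, with 13.1% higher and 36.2% lower), and 17 rose and 32 fell in Shank3 (55.5%, with 15.6% higher and 39.8% lower). With the pair share 4 were called in WT (6.85% of all genes) and 1 in Shank3 (0.300%). The difference between the genotypes' responses at 4 h was called for no channel gene (0.00882% of all genes; 0 of 82 at an unadjusted p under 0.05). The smallest p was that of Kcnk6, a leak channel, at -1.32 (unadjusted p = 0.0614).

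The responses at 4 h and 1 h, each against its own cohort, were then set against each other. Of the 82 genes 4 had a higher and 3 a lower response at 4 h (13.3% of all genes, with 2.80% higher and 10.5% lower), and 4 and 0 with the pair share (5.88%, with 2.93% higher and 2.95% lower). Kcnab2, a Kv beta subunit, was called in both fits, at 0.97 (SE 0.213, adjusted p = 0.0039; 0.58 with the pair share, adjusted p = 0.0285). It read 352, 404, 428 and 605 in naive WT libraries of cohort 2 and 686, 616, 742, 790 and 992 at 4 h, against 389 to 605 (median 475) in WT at 1 h. Kcnd2 stood at -0.86 (95% interval -1.52 to -0.21, adjusted p = 0.0625). The count of 7 depended on single libraries: it ranged from 2 to 14 over those left out, with 14 without Shank3 4 h replicate 2 and 11 without WT 4 h replicate 2.

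Family levels were summed over genes with no exon-overlapping opposite row, and each time is set beside the naive mice of its own cohort. The 68 potassium genes summed to 8276 ± 603 normalised CPM in naive WT libraries of cohort 1 (SD, n = 3) and 5344 ± 1079 at 1 h (n = 6), and to 6301 ± 1103 in naive WT libraries of cohort 2 (n = 4) and 4194 ± 264 at 4 h (n = 5). In Shank3 they summed to 7506 ± 756 in naive cohort 1 (n = 3), 4819 ± 455 at 1 h (n = 5), 5814 ± 1018 in naive cohort 2 (n = 4) and 4233 ± 154 at 4 h (n = 6). In naive WT libraries of cohort 2 the potassium sum was 7817, 6384, 5691 and 5314 at pair shares of 11.7, 12.4, 13.8 and 14.9%. The part of the pair share in these sums was not tested. The WT library at 1 h with a pair share of 11.4% stood at 7350, below the 3 naive WT libraries of cohort 1 (7580 to 8624), and the other 5 (13.1 to 17.0%) between 4379 and 5604. The Shank3 libraries at 1 h stood at 5510, 4898, 4872, 4379 and 4434 at pair shares of 12.6, 12.8, 13.0, 14.9 and 16.8%. The 13 sodium genes summed to 1509 ± 80.4 in naive WT libraries of cohort 1 and 1681 ± 205 at 1 h, and to 1631 ± 196 in naive WT libraries of cohort 2 and 1768 ± 101 at 4 h. Kcnf1 makes up much of the potassium sum, at 3471 ± 451 in naive WT libraries of cohort 1 and 1845 ± 711 at 1 h, and 2477 ± 679 in naive WT libraries of cohort 2 and 843 ± 271 at 4 h.

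**Figure D5:**
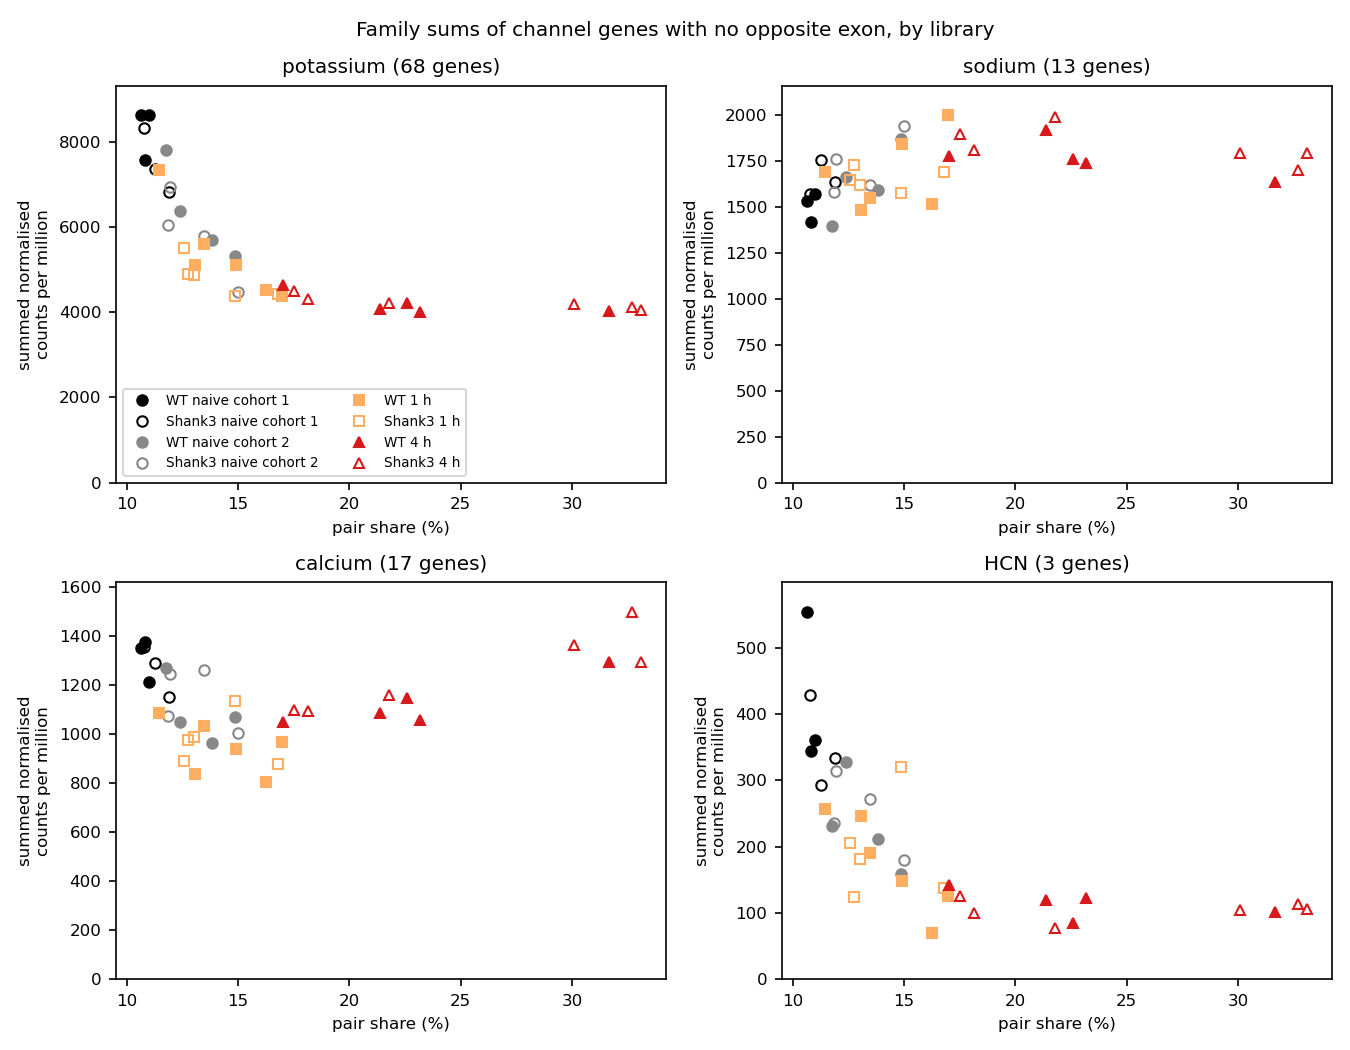
Summed normalised CPM of potassium, sodium, calcium and HCN channel genes with no exon-overlapping opposite row in each library (vertical axis) against its pair share in percent (horizontal axis), with symbols for the groups. In WT the potassium sums lie between 5314 and 7817 in naive cohort 2 and between 4001 and 4642 at 4 h, and the sodium sums between 1397 and 1871 and between 1638 and 1920.

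The number of exons went with the fold change in a split chosen after the values were seen. The 18 tested genes with 1 to 3 exons had a median of -0.79 at 1 h (11 fell) and -1.19 at 4 h (14 fell), and -0.38 and -0.24 with the pair share. The 29 with 4 to 10 exons had medians of -0.22 and 0.11, and the 35 with 11 or more -0.31 and -0.14. Of the channel genes with 1 to 3 exons, 12 have no opposite gene, with medians of -0.71 at 1 h (7 fell) and -1.19 at 4 h (9 fell). Among 530 coding genes of all kinds with 1 to 3 exons and no opposite gene the medians were -0.02 and -0.05, with 117 lower at 1 h and 181 at 4 h. Without an opposite gene, the 14 channel genes with 4 to 10 exons had medians of 0.01 and 0.36, beside 0.21 and 0.16 for coding genes of that size, and the 11 with 11 or more exons 0.01 and -0.07, beside 0.19 and 0.21. The part of exon number in the results was not tested further.

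Proteins that anchor or modify these channels were taken as a separate list of 47 genes, 46 of them tested. At 1 h 9 rose and 7 fell (8 and 6 with the pair share), where 41.4% of all genes were called (31.9% with the pair share). Ank3, the ankyrin that holds sodium and M channels at the axon initial segment, rose by 0.45 (0.42 with the pair share), and Ank2 by 0.45 (0.52). Vapa, a membrane protein of the endoplasmic reticulum, rose by 0.72 (0.60), and Fgf12, which binds sodium channels, by 0.60 (0.52). Cntnap1 fell by 1.04 (-0.71) and Neto1 by 1.18 (-0.77). At 4 h 18 rose and 10 fell (66.0% of all genes called), and 2 rose and none fell with the pair share (6.70% of all genes), Ank2 among them. None differed between genotypes.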

How the data were processed

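Ribosome-bound RNA of 36 libraries was sequenced with a stranded mRNA kit, per the labels' protocols. The authors deposited raw counts per gene (unit: counts) for each library; the submitters' processing notes list, with no roles, HISAT2 2.2.0 and Salmon 1.4, then StringTie 2.1.3, DESeq2, Trimmomatic 0.39 and FastQC, with the mm10 build. The strand setting of the counting is not given in the sources used here. Symbols, exons and opposite-strand genes came from GENCODE vM21, and promoters from RefSeq (GRCm38.p6), which matched 101 of the 138 genes.

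Counts were fitted with edgeR 4.0.16 (R 4.3.3, limma 3.58.1): filterByExpr left 11341 genes, glmQLFit (robust) used 8 groups of genotype, treatment and cohort with 28 residual degrees of freedom, and glmQLFTest p-values were adjusted over all genes tested. Normalised CPM and the fits used TMM factors and totals of the 4822 tested genes with no opposite-strand gene. The biological coefficient of variation was 27%, and 13.5% with the pair share as covariate. Libraries at 1 h were compared with naive cohort 1 and those at 4 h with naive cohort 2, so genotype and swim comparisons share libraries. The procedure was tested on simulated data. DESeq2 1.42.0 was an alternative, with others given below.

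The genes and lists were chosen with earlier results of these data known. Genes named with values were those called in a comparison (up to 12 per direction), the gene with the smallest p per family, and a preset list of channel genes (some are counted but not reported singly here); the pair share fit with all-gene TMM, the motifs and the exon-number split were chosen after the data were seen. No replicate pair of the 68 within groups agreed within sampling noise (chi-square per degree of freedom 1.46 to 81.6).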

Additional observations from a re-analysis of the deposited data

Results flagged for a closer look

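Among 162 groups of 4 to 10 libraries checked for 20 channel genes and the family sums, 9 held 1 library far from the others; chance gives about 1 in 20. All values are normalised CPM. Kcnd2 read 131.8 in WT 4 h replicate 1 against 72.19 to 78.74 in the others, and Kcnab3 299.9 in WT 4 h replicate 2 against 123.3 to 160.2. In naive WT libraries of cohort 2, Kcna1 read 249.8 in replicate 4 against 165.4 to 173.1, Kcnk12 166.5 in replicate 4 against 59.81 to 76.92, and Scn8a 235.4 in replicate 7 against 182.7 to 185. In naive Shank3 libraries of cohort 2, Scn2a read 173.1 in replicate 6 against 284.4 to 306.7. Replicate 4 of Shank3 4 h was low for Hcn2 (26.88 against 51.89 to 62.83) and for Scn8a (181.9 against 238.3 to 253.1). Cacna1a read 163.8 in WT 1 h replicate 1 against 42.33 to 85.71.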

How the results depend on the processing

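The count of channel genes called between genotypes and in both tests of the difference between responses was 0 under every alternative run. Joining the pair share with all-gene TMM, an alternative added after seeing the data, gave 15 calls for WT at 1 h (28 without), 23 for the average at 1 h (36), 5 for WT at 4 h (44), 1 for Shank3 at 4 h (49), 5 for the average at 4 h (58) and 3 for the time difference (7). The pair share alone gave 18 for WT at 1 h, 4 for WT, 1 for Shank3 and 5 for the average at 4 h, and 4 for the time difference. Testing only genes with no opposite-strand gene (37 channel genes, so fewer can be called) gave 12 for WT, 4 for Shank3 and 14 for the average at 1 h, 19, 23 and 26 at 4 h, and 2 for the time difference. Keeping swim libraries with a low pair share (1 WT library at 4 h, assumed to vary like the other groups) gave 9 for WT at 1 h, 2 for WT, 21 for Shank3 and 28 for the average at 4 h, and 0 for the time difference. For Shank3 at 1 h (9), RLE factors gave 16, DESeq2 19 and an additive cohort term 23. For the time difference, no low-count filter gave 3, as did leaving out the libraries with over 10% ribosomal RNA counts. With each library left out in turn, calls ranged from 14 to 32 for WT, 0 to 17 for Shank3 and 30 to 39 for the average at 1 h, from 34 to 47, 39 to 50 and 54 to 59 at 4 h, and from 2 to 14 for the time difference.

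Reversals were few. With the pair share, Cacnb3 at 4 h stood at -0.12 in WT and -0.0029 in the average, and Kcnj4 at 4 h in Shank3 at -0.25; joined with all-gene TMM they stood at -0.028 (WT) and -0.17. The cause of these changes was not tested.

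Same-numbered libraries did not deviate together in every pair (correlations -0.22 to 0.70), so the numbers are not taken to pair libraries. With the replicate number as a block, calls were 25 for WT, 3 for Shank3 and 33 for the average at 1 h, 42, 44 and 52 at 4 h, 2 for the time difference and 0 for genotype. Member counts of 1346 to 14452 a library limit what low genes can show.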
